A study of Mus musculus with 6 samples.

Results

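The genes described here were 10 secreted factors that act on blood and lymph vessels, chosen by name: the 5 VEGF family ligands Vegfa, Vegfb, Vegfc, Vegfd and Pgf, the angiopoietins Angpt1 and Angpt2, the angiopoietin-like genes Angptl2 and Angptl4, and Adm, which encodes adrenomedullin. They were found by gene symbol among the 55335 genes of the deposited count table, and all 10 passed the filter on low counts, which 15881 genes passed.

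VEGF ligands are dimers released by many tissues, including fibroblasts, and bind receptor tyrosine kinases on endothelial cells. VEGFA acts mainly through VEGFR2 (gene Kdr) and also binds VEGFR1 (Flt1), PGF and VEGFB bind VEGFR1, and VEGFC and VEGFD act on VEGFR3 (Flt4), the main receptor of lymphatic vessels. Angiopoietin 1 activates the endothelial receptor TIE2 (Tek) and angiopoietin 2 mostly opposes it, while adrenomedullin signals through the receptor CALCRL with a RAMP protein. Vegfa, Adm and Angptl4 are known to be induced by the hypoxia-inducible transcription factors (HIF).

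Both groups were wild-type mouse embryonic fibroblasts (MEF), adherent connective tissue cells kept as 1 line, and their polyadenylated RNA was sequenced. Ctrl cells were the parental cells, and Confine cells were those collected after they had passed within 15 h through a transwell membrane with 3 μm pores; the labels name no other treatment, allele or agent for either group. The comparison asks which transcripts differ after confined migration. It cannot tell passage through the pores apart from the hours spent on the membrane or from the medium in the insert. Nor can it separate a change in the cells from a selection of cells that already differed, since Confine holds only cells that passed. In the migration assay that the study describes for another pore size, serum was present only below the membrane, and whether this held for the Confine cells is not given in the sources used here. The columns of Confine replicates 1 and 2 held the same count in every gene and were counted as 1 library, called Confine replicate 1, which left 3 Ctrl and 2 Confine libraries. No source says that the replicates were separate cultures, so p-values measure the spread between these libraries, which may be technical. Totals ran from 22287210 to 27853805 counts in Ctrl and from 27290138 to 32537550 in Confine.

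Values are given as counts, and as normalised CPM, the usual scaling of counts to library size, with the size of each library adjusted by the TMM method. RPKM, normalised CPM per kilobase of exon, was used only to compare levels between genes. Differences were tested with edgeR's quasi-likelihood test over all 15881 genes. A gene "rose" or "fell" in Confine at a Benjamini-Hochberg adjusted p under 0.05, and a stricter call also asks for an absolute log2 fold change above 1.5.

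The fibroblast identity of the libraries was checked first. Col1a1, Col1a2 and Vim had between 49005 and 189127 counts in every library, but 3 other fibroblast markers were close to absent: Thy1 had at most 2 counts, Lum at most 1, and Dcn at most 27. Of 10 fibroblast markers, 7 were tested, 4 rose and 0 fell, and their summed level was 8091 to 8830 normalised CPM in Ctrl and 14200 to 14880 in Confine. Of 8 endothelial markers, 3 had no count in any library, Pecam1 had at most 8 and Cdh5 at most 4. The summed endothelial level was 5.01 to 8.42 normalised CPM in Ctrl and 4.63 to 5.84 in Confine, with 1 of 3 tested markers rising (Vwf) and 1 falling (Erg). Of 6 pericyte and smooth muscle markers, 3 were tested, 2 rose and 1 fell, and Kcnj8 and Abcc9 had no count. Their summed level was 214.5 to 231.3 normalised CPM in Ctrl and 435.8 to 442.5 in Confine, nearly all of it from Cspg4. Of 7 leukocyte markers, 2 were tested, of which Cd68 rose and Lyz2 fell, Ptprc had at most 2 counts, and the summed level was 6.89 to 7.71 normalised CPM in Ctrl and 17.2 to 24.1 in Confine. None of 6 epithelial markers was tested, with a sum of at most 0.675 normalised CPM. The part of the pericyte and leukocyte markers in the results below was not tested.

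Of the 10 factors, 5 rose in Confine (Pgf, Vegfa, Adm, Angptl4 and Angptl2) and 2 fell (Angpt1 and Angpt2), while Vegfb, Vegfc and Vegfd did not pass the test. Among all genes tested, 12.8% rose and 10.2% fell, but the factors were chosen with earlier results of these data known. With the fold change cutoff, 4 factors were called higher and 1 lower, where the background was 4.89% and 3.11% of all genes. The Confine libraries lay above every Ctrl library for 6 factors and below every one for 2, and such separation was seen in 25.9% and 23.6% of all genes. The median absolute log2 fold change was 1.45 over the factors and 0.39 over all genes tested, with signed medians of 0.94 and -0.0020. When libraries were scaled by their totals and not by TMM, log2 fold changes moved by a median of -0.21, and of all genes that passed, 34% instead of 55.7% were higher. The 5 factors that rose and the 2 that fell passed the test in the same direction there. In bulk RNA, fewer cells of a kind and less RNA per cell cannot be told apart.

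**Figure D1:**
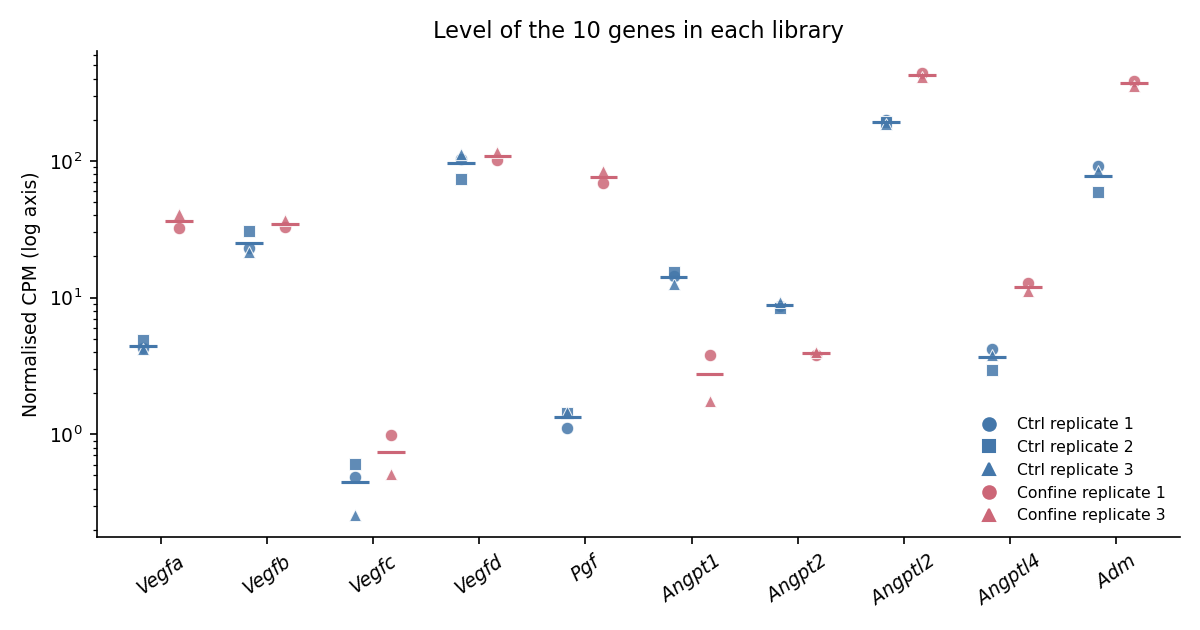
Normalised CPM on a log axis of the 10 factors in each library, with Ctrl in blue, Confine in red, the marker shape giving the replicate and the bar the group mean. Pgf had 1.11 to 1.45 normalised CPM in Ctrl and 68.5 to 84.4 in Confine, the widest gap of the 10.

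**Figure D2:**
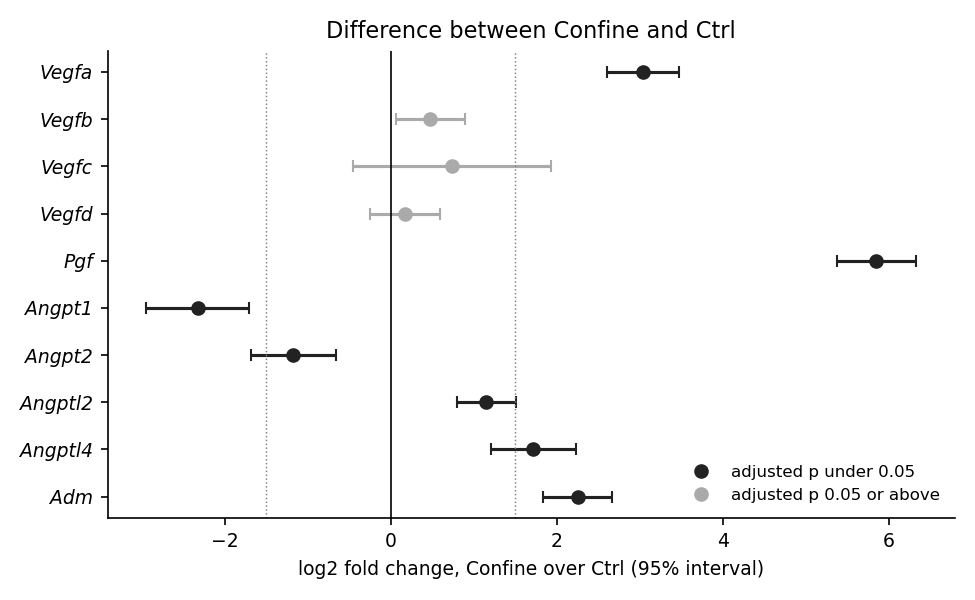
Log2 fold change of Confine over Ctrl for the 10 factors with 95% intervals from edgeR, in black where the adjusted p is under 0.05 and grey otherwise; dotted lines mark -1.5 and 1.5. Pgf lies at 5.85, Vegfa at 3.03 and Angpt1 at -2.33.

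Pgf, which encodes placental growth factor, showed the largest difference of the 10. It had 32, 38 and 34 counts in Ctrl and 2026 and 2126 in Confine, or 1.33 ± 0.194 normalised CPM (SD, n = 3) against 76.4 ± 11.3 (SD, n = 2). The Confine libraries were far above all Ctrl libraries, which stood close together. The log2 fold change was 5.85 (standard error, SE, 0.23, adjusted p by edgeR = 6.31e-12), a 57.6-fold difference that ranked 40th among the rises of all tested genes. In GRCm38 the Pgf gene spans chromosome 12, minus strand, 85166635 to 85177790, free of overlap with other annotated genes.

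Vegfa, the main ligand for the growth of blood vessels, rose as well. It had 123, 129 and 99 counts in Ctrl against 955 and 1021 in Confine, which is 4.44 ± 0.373 normalised CPM (SD, n = 3) and 36.4 ± 5.85 (SD, n = 2). Both Confine libraries were several times above the highest Ctrl library. The log2 fold change was 3.03 (SE 0.21, adjusted p by edgeR = 5.99e-09), which is 8.18-fold. In GRCm38 it spans chromosome 17, minus strand, 46016993 to 46032369. Counts per gene do not show which splice forms or start sites of Vegfa were used.

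Promoters of the factors were read from RefSeq (GRCm38.p6), as windows from 250 bases before to 50 bases after the start site on the strand of the gene. There were 9 windows for 7 of the 10 factors, and 2 factors, Vegfa and Pgf, had a second window. Angpt1, Angpt2 and Angptl4 had no window, and bases farther upstream or downstream were not read for any factor. The windows of the 3 factors with the largest rise are shown, with matches in capitals to ACGTG and GCGTG, the letters at the core of the element that HIF binds, or to their reverse complements CACGT and CACGC. The first Vegfa window (chr17:46032328-46032627, minus strand), the first Pgf window (chr12:85177264-85177563, minus strand) and the Adm window (chr7:110627407-110627706, plus strand) read as follows.
Vegfa: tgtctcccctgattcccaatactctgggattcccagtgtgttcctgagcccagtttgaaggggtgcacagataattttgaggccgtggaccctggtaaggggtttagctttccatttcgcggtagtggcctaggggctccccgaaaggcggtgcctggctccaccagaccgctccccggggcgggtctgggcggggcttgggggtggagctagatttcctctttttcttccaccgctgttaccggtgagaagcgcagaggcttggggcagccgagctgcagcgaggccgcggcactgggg
Pgf: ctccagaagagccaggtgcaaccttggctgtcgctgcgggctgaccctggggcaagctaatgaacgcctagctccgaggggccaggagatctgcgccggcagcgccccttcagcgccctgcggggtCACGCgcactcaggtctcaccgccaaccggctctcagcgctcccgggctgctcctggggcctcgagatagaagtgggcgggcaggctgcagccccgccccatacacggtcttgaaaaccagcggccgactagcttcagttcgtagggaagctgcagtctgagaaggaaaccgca
Adm: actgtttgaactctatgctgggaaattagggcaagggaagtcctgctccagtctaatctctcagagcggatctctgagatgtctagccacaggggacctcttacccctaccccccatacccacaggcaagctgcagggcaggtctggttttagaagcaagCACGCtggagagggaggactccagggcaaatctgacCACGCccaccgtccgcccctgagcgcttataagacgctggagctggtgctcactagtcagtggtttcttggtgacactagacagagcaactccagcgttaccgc
The first Pgf window held 1 match, at position -124 from the start site, the Adm window 2, at -90 and -54, and the first Vegfa window none. The second Vegfa window, inside the gene (chr17:46025114-46025413), held 1 match to each motif, at -218 and -211, and the second Pgf window held none. Both Pgf windows also lay inside the gene span given above, which comes from another annotation with a start farther upstream. Vegfb, which did not pass the test, had 2 matches, at -237 and -81, and Vegfc, Vegfd and Angptl2 had none. Matches of the 2 motifs did not overlap in these windows. Of all 32851 windows of this length, 19.6% held ACGTG, 32.4% GCGTG and 43.8% at least 1 of them, so a match is common, and it is a description of letters and not of binding.

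The other 3 VEGF ligands did not pass the test. Vegfb, which binds VEGFR1 (chromosome 19, minus strand, 6982473 to 6987651), had 671, 813 and 503 counts in Ctrl and 968 and 931 in Confine. On the CPM scale this was 25.1 ± 4.95 (SD, n = 3) against 34.8 ± 3.01 (SD, n = 2), with both Confine libraries above the highest Ctrl library by a small margin. Its log2 fold change was 0.47, with a 95% interval from 0.057 to 0.89 and an edgeR adjusted p of 0.0965. Without Ctrl replicate 2, the highest of the 3, it was 0.64 with an adjusted p of 0.0095.

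Vegfd, a ligand for lymphatic vessels (chromosome X, plus strand, 164373378 to 164402650), had 3009, 1957 and 2657 counts in Ctrl and 3016 and 2937 in Confine, and the groups overlapped. Its log2 fold change was 0.17 (95% interval -0.25 to 0.59, edgeR adjusted p = 0.594), which leaves room for a modest change either way. Vegfc, its closest relative in function (chromosome 8, plus strand, 54077606 to 54187096), was at the edge of detection with 14, 16 and 6 counts in Ctrl and 29 and 13 in Confine. At this depth a modest change in Vegfc could not be told from none, with a log2 fold change of 0.73 and a 95% interval from -0.46 to 1.93 (edgeR adjusted p = 0.395).

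Compared per length, the mix of VEGF ligand transcripts lay apart in the groups for Pgf, Vegfa and Vegfd, in a design too small for an exact test to pass 0.05. Summed over the 5 ligands, the level was 59.2, 51.7 and 61.8 RPKM in Ctrl and 94.2 and 110.2 RPKM in Confine. The share of Pgf in that sum was 0.802% ± 0.156 (SD, n = 3) in Ctrl and 25.7% ± 0.958 (SD, n = 2) in Confine. The share of Vegfa was 1.82% ± 0.33 (SD, n = 3) and 8.29% ± 0.418 (SD, n = 2). Vegfd held the largest share in each library, 69.4% ± 8.81 (SD, n = 3) in Ctrl and 44.4% ± 0.692 (SD, n = 2) in Confine. Its own mean level was 40.3 RPKM in Ctrl and 45.4 RPKM in Confine, so its lower share went with a larger sum and not with a lower level. The groups did not overlap in the share of Pgf, Vegfa or Vegfd. The two-sided exact permutation p of the difference in means was 0.1 for Pgf and Vegfa, the smallest that 3 libraries against 2 allow, and 0.2 for Vegfd, whose Ctrl libraries were widely spread. The ratio of Pgf to Vegfa in RPKM was 0.384, 0.435 and 0.507 in Ctrl and 3.13 and 3.07 in Confine, so the order of these ligands was turned round.

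**Figure D3:**
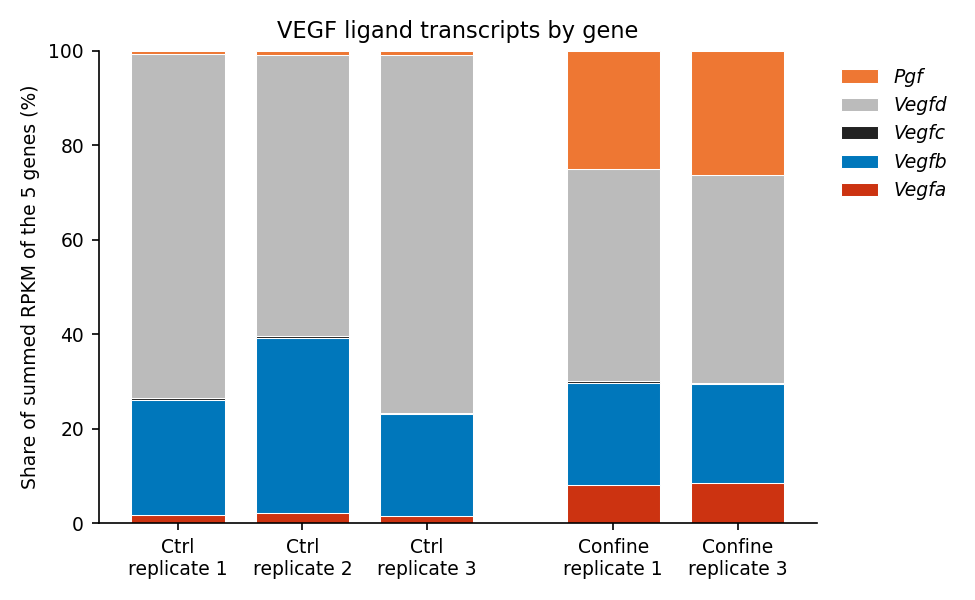
Share of each VEGF ligand gene in the summed RPKM of the 5, one bar per library, on an axis from 0 to 100%. Pgf is a thin band of under 1% in the 3 Ctrl bars and takes 25.0% and 26.4% of the Confine bars.

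The angiopoietins fell. Angpt1, the activating ligand of TIE2, had 414, 408 and 294 counts in Ctrl and 113 and 44 in Confine, or 14.1 ± 1.47 normalised CPM (SD, n = 3) and 2.78 ± 1.46 (SD, n = 2). The groups were separate, but the 2 Confine libraries differed from each other. The log2 fold change was -2.33 (SE 0.30, adjusted p by edgeR = 1.2e-05), 5.01-fold lower, and it lay between -3.01 and -1.88 with each library left out in turn. Angpt1 (chromosome 15 from 42424723 to 42676977, GRCm38, minus strand) shares 737 exon bases with the antisense gene Gm17473, whose own mean count over the libraries was 0.2.

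Angpt2, the ligand that mostly opposes angiopoietin 1, had 253, 222 and 220 counts in Ctrl and 113 and 101 in Confine. This was 8.83 ± 0.489 normalised CPM (SD, n = 3) against 3.91 ± 0.136 (SD, n = 2), with little spread within either group. The log2 fold change was -1.17 (SE 0.24, adjusted p by edgeR = 0.00149), a 2.25-fold drop that stayed inside the cutoff of 1.5. Per length, Angpt1 and Angpt2 overlapped in Ctrl (ratio in RPKM 1.16, 1.30 and 0.947), while Angpt1 was the lower of the 2 in both Confine libraries (0.709 and 0.309). Angpt2 (chromosome 8, minus strand, 18690263 to 18741562) lies in the protein-coding gene Mcph1 on the opposite strand, with no shared exon base. The mean count over the libraries was 393.6 for Mcph1 and 181.8 for Angpt2. The strand setting of the counting is not given in the sources used here. Whether reads of Mcph1 entered the Angpt2 counts was not tested.

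Both angiopoietin-like genes rose. Angptl2, a secreted factor tied to inflammation and vessel growth (chromosome 2, plus strand, 33216069 to 33247717), had 5788, 5080 and 4344 counts in Ctrl and 13037 and 10414 in Confine. Its level was 192.2 ± 7.61 normalised CPM (SD, n = 3) and 427.0 ± 19.1 (SD, n = 2), the groups were well apart, and the log2 fold change was 1.15 (SE 0.17, adjusted p by edgeR = 6.12e-05). Angptl4, an inhibitor of lipoprotein lipase that also acts on vessel walls (chromosome 17, minus strand, 33773750 to 33781830), had 122, 78 and 90 counts in Ctrl and 381 and 283 in Confine. This was 3.66 ± 0.649 normalised CPM (SD, n = 3) and 12.1 ± 1.16 (SD, n = 2), and every Confine value exceeded every Ctrl value. The log2 fold change of Angptl4 was 1.72 (SE 0.24, adjusted p by edgeR = 3.61e-05), or 3.29-fold.

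Adm, whose peptide widens vessels and tightens the endothelial barrier (chromosome 7, plus strand, 110627661 to 110629820), had 2656, 1555 and 1970 counts in Ctrl and 11444 and 8943 in Confine. Ctrl replicate 2 was the lowest library, and both Confine libraries were far above Ctrl replicate 1, the highest of its group. The level was 78.1 ± 17.2 normalised CPM (SD, n = 3) and 370.9 ± 22.3 (SD, n = 2). The log2 fold change was 2.25 (SE 0.20, adjusted p by edgeR = 1.74e-07), or 4.75-fold.

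Ordered by level per length, Adm (48.2 ± 10.6 RPKM, SD, n = 3), Vegfd (40.3 ± 8.49) and Angptl2 (30.6 ± 1.21) led in Ctrl, where Adm overlapped Vegfd and Vegfd overlapped Angptl2. Vegfb followed at 15.6 RPKM, then Angpt1 and Angpt2 at 2.70 and 2.39 RPKM, which overlapped. Vegfa and Angptl4 overlapped at 1.04 RPKM each, Pgf stood at 0.458 and Vegfc was last at 0.183. In Confine, Adm (229.1 ± 13.8 RPKM, SD, n = 2) stood alone at the top, ahead of Angptl2 (67.9), Vegfd (45.4), Pgf (26.3), Vegfb (21.7) and Vegfa (8.49). Pgf thus moved from the ninth place to the fourth, and Angpt1 from the fifth to the ninth at 0.535 RPKM, where it overlapped Vegfc. With 2 Confine libraries, separate ranges between neighbours rest on few values.

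Of the receptors for these ligands, Flt1 rose, while those most typical of endothelium were close to absent. Of 12 receptors and co-receptors listed, 7 were tested, 3 rose and 2 fell, with a median log2 fold change of 0.36. Flt1 (VEGFR1), to which PGF, VEGFA and VEGFB bind, had 305, 386 and 242 counts in Ctrl and 1223 in each Confine library, with a log2 fold change of 1.93 (SE 0.20, adjusted p by edgeR = 1.35e-06). Counts per gene do not separate the membrane form of Flt1 from its soluble form, which traps ligand. Flt4 (VEGFR3), named after its values were seen, had 22, 13 and 14 counts in Ctrl and 7 and 14 in Confine. It did not pass the test (log2 fold change -0.65, edgeR adjusted p = 0.484). Kdr (VEGFR2) had 1, 11 and 0 counts in Ctrl and 0 and 1 in Confine, Tek at most 5 counts, Tie1 none, and Calcrl at most 2, too few to be tested, where a count of 0 allows up to 3 counts (0.101 to 0.128 normalised CPM).

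The VEGF co-receptors Nrp1 and Nrp2 were both abundant. Nrp1 had 1899, 1326 and 1318 counts in Ctrl and 1155 and 958 in Confine, a log2 fold change of -0.57 (SE 0.19, adjusted p by edgeR = 0.0352). That call was lost without Ctrl replicate 1 (adjusted p = 0.174), without Confine replicate 1 (0.178) and without Confine replicate 3 (0.224). Nrp2 had a log2 fold change of 0.36 (95% interval -0.016 to 0.73, adjusted p = 0.165). Of the adrenomedullin receptor partners, Ramp3 had a log2 fold change of 1.10 (edgeR adjusted p = 0.0215), and without Confine replicate 3 it was 0.45 (adjusted p = 0.542). The Ramp3 call was also lost without Ctrl replicate 1 (adjusted p = 0.082), with library size alone (0.0572) and with the identical columns counted as 2 samples (0.0678). Ramp2 fell, from 34, 16 and 21 counts to 7 and 1 (log2 fold change -2.60, edgeR adjusted p = 0.0118), but not without Confine replicate 3 (adjusted p = 0.15). Ackr3, a scavenger receptor for CXCL12 and adrenomedullin, rose from 11, 4 and 5 counts to 111 and 150, a log2 fold change of 4.24 (SE 0.43, adjusted p by edgeR = 9.78e-07).

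Among 18 other secreted angiogenic factors, 13 were tested, 4 rose and 2 fell, with a median log2 fold change of 0.48. Apln, the ligand of the endothelial apelin receptor, had 629, 535 and 349 counts in Ctrl and 2935 and 2922 in Confine, a log2 fold change of 2.50 (SE 0.20, adjusted p by edgeR = 4.59e-08). Ccn2, a matrix-bound growth factor, rose with a log2 fold change of 2.24 (edgeR adjusted p = 2.64e-06). Fgf1 and Fgf2 had log2 fold changes of 1.88 and 1.09 (edgeR adjusted p = 0.0204 and 0.023), and Fgf2 was named after its value was seen. The Fgf2 call was lost without Ctrl replicate 1 (adjusted p = 0.091), without Ctrl replicate 3 (0.0618), without Confine replicate 3 (0.225) and with library size alone (0.0635). At most 44 counts stood behind any Fgf1 value, and its call was lost without Ctrl replicate 1 (adjusted p = 0.0556) and without Confine replicate 3 (0.437). Cxcl12, a chemokine that draws progenitor cells, fell from 26834, 15966 and 23594 counts to 8371 and 6855 (log2 fold change -1.61, edgeR adjusted p = 2.72e-05), and Ptn, which encodes pleiotrophin, fell with -2.03 (edgeR adjusted p = 1.00e-04). Epo, the hormone erythropoietin, had no count in Ctrl and 4 and 8 counts in Confine, too few to be tested. Epo is named outside the rule given below.

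A further 6 angiopoietin and angiopoietin-like genes were on a list, of which 4 were tested, 1 rose and 0 fell (median log2 fold change 0.12). Angptl6 rose with a log2 fold change of 1.20 (edgeR adjusted p = 0.00105), and without Confine replicate 3 it was 0.78 (adjusted p = 0.0904). Of 6 genes that process VEGFC and VEGFD, 4 were tested, 2 rose and 0 fell (median 0.39). Ccbe1, a cofactor for the cleavage of VEGFC, rose from 69, 118 and 49 counts to 889 and 801 (log2 fold change 3.37, standard error 0.27, edgeR adjusted p = 4.57e-08). Its partner protease gene Adamts3 had no count in any library, which allows up to 3 counts. Furin, a protease that cuts many secreted precursors, had a log2 fold change of 0.69 (edgeR adjusted p = 0.0105), with an adjusted p of 0.0502 without Ctrl replicate 3, 0.155 without Confine replicate 1 and 0.0649 with library size alone.

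Of 13 secreted inhibitors of vessel growth, 10 were tested, 1 rose and 2 fell, with a median log2 fold change of -0.18, and with library size alone 0 rose and 5 fell. Sema3a, a semaphorin that binds neuropilin 1, had 1746, 1233 and 1070 counts in Ctrl and 366 and 376 in Confine, a log2 fold change of -1.90 (SE 0.21, adjusted p by edgeR = 2.55e-06). Sema3e fell from 20, 36 and 40 counts to 6 and 8 (log2 fold change -2.25, edgeR adjusted p = 0.00933), with an adjusted p of 0.108 without Confine replicate 1. Col18a1, the source of endostatin, had a log2 fold change of 0.83 (edgeR adjusted p = 0.0299). The Col18a1 call was lost without Ctrl replicate 3 (adjusted p = 0.0757), without Confine replicate 1 (0.134), without Confine replicate 3 (0.131) and with library size alone (0.0957).

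ANGPTL4 blocks lipoprotein lipase, so 6 genes of lipase handling were read beside Angptl4: 5 were tested, 2 rose and 1 fell, with a median log2 fold change of 0.59. Lpl, the lipase itself, fell from 1102, 698 and 827 counts to 225 and 111 (log2 fold change -2.46, standard error 0.26, edgeR adjusted p = 1.35e-06). Lmf1, needed for the lipase to fold, rose with a log2 fold change of 1.11 (edgeR adjusted p = 1.88e-04), and Plin2, the coat protein of lipid droplets, with 0.97 (edgeR adjusted p = 7.29e-04). Over the 6 lists, 43 of 61 genes were tested, of which 13 rose and 7 fell, beside 12.8% and 10.2% of all genes tested. With library size alone the balance turned, with 9 that rose and 10 that fell, and without Confine replicate 3 the number that rose was 8.

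**Figure D4:**
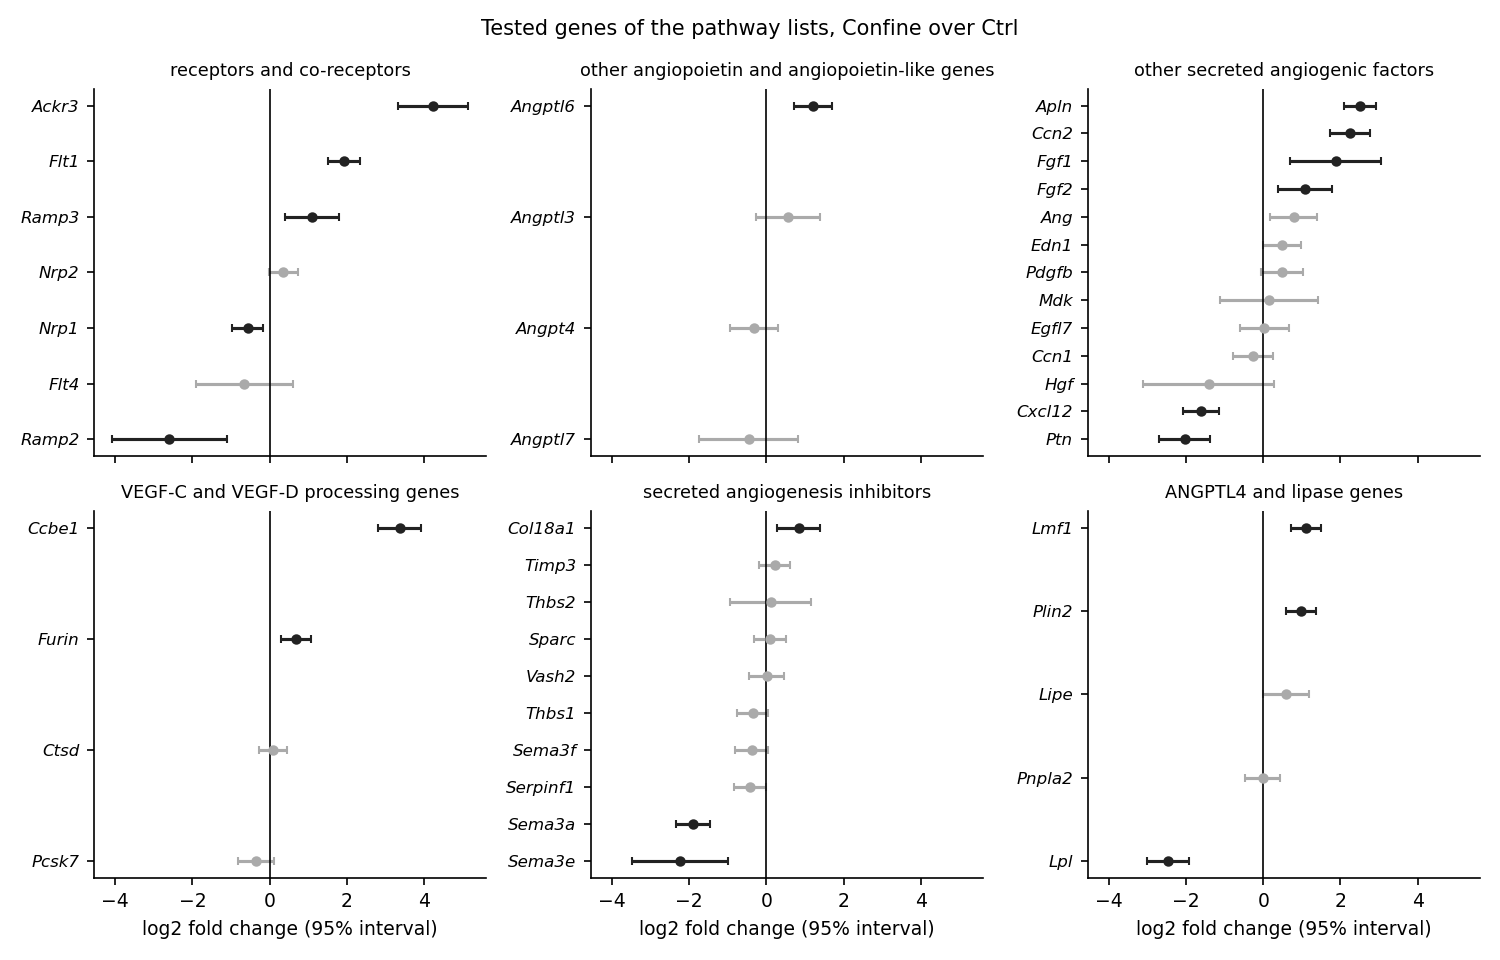
Log2 fold change of Confine over Ctrl with 95% intervals from edgeR for the tested genes of the 6 lists, in black where the adjusted p is under 0.05 and grey otherwise. Ackr3 (4.24) and Ccbe1 (3.37) lie farthest to the right and Ramp2 (-2.60) and Lpl (-2.46) farthest to the left.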

How the data were processed

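RNA of MEF cells was sequenced as strand-specific polyadenylated libraries. According to the submitters' processing notes the authors trimmed reads with Trim Galore 0.6.10, aligned them to mm10 with HISAT2 2.1.0, used SAMtools 1.5, and counted reads per gene with featureCounts; its annotation and strand setting are not given in the sources used here. The deposited values are raw counts of 55335 genes in 6 columns. Symbols and positions came from GENCODE M21 (GRCm38), and 55154 identifiers matched.

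Counts were tested with edgeR 4.0.16 in R 4.3.3 (TMM, filterByExpr, quasi-likelihood test, Benjamini-Hochberg adjustment over 15881 genes), and the 2 identical Confine columns entered once. Depth limits low counts. The intervals come from the edgeR fit and take in counting error and the spread between these libraries, which may be technical. The limit of 3 counts for a count of 0 covers counting error alone. The fold change cutoff is the study's, and its p cutoff was applied here to adjusted p-values. On counts simulated from the fitted model, with 200 genes changed 4-fold among 15379, the test recovered 97%, and 3.96% of its calls were false. The changed genes were drawn only from those above a limit on mean expression, and the simulated spread was the fitted one. These values therefore do not show how the test performs on low genes or on the real libraries. Shares were compared with exact permutation tests.

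All 10 factors are named. Of the 6 lists (receptors, other angiopoietins, other secreted factors, processing genes, inhibitors, lipase genes), the tested genes with an adjusted p under 0.05 are named, at most 5 a list by size of change, and Flt1, Kdr, Nrp1, Nrp2, Calcrl and Lpl always. Flt4, Tek, Tie1, Fgf2, Epo and Adamts3 are named outside this rule. Factors and lists were chosen with earlier results of these data known. Alternatives were other scalings, filters and tools (DESeq2 1.42.0, limma 3.58.1), a replicate block, and each library left out in turn.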

Additional observations from a re-analysis of the deposited data

How the results depend on the processing

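The 7 factors that passed the test passed it in the same direction in all 14 alternative fits (other scalings, filters and tools, the replicate block, the identical columns counted as 2 samples, and each library left out). The number of factors that rose was 5, or 6 with Vegfb added without Ctrl replicate 2 and in the replicate block with the repeated library as number 1 (log2 fold change of Vegfb 0.641), and 2 fell throughout. With a test against the fold cutoff itself, 3 rather than 4 factors exceeded it upward. Vegfd turned to -0.033 with library size alone, where its adjusted p was 0.923. The share of Vegfa among VEGF ligands was higher in Confine by 6.47 percentage points, by 10.57 in counts without division by length, and by 6.17 to 6.76 with each library left out. With each library left out, the list genes that rose numbered 8 to 13 (8 without Confine replicate 3) and those that fell 5 to 10, receptors that fell 0 to 2, other angiopoietins that rose 0 to 1 and fell 0 to 1, other secreted factors that rose 2 to 4, processing genes that rose 1 to 2 and fell 0 to 1, and inhibitors that rose 0 to 1 and fell 1 to 2. With each Ctrl library left out, receptors that rose numbered 2 to 3, other secreted factors that fell 2 to 3, and lipase genes that rose 2 to 3. With library size alone 9 list genes rose and 10 fell, 1 processing gene rose, and 0 inhibitors rose and 5 fell. With at least 10 counts in every library 1 receptor and 1 inhibitor fell. That filter removed Ramp2 and Sema3e, and also Ackr3 and Fgf1, so none of these was tested there. The replicate numbers were not shown to pair the libraries: the differences of equally numbered libraries from their group means correlated at -0.091 or 0.077 over genes, according to which number the repeated library took. In the replicate block with it as number 2, 2528 of all genes passed in place of 3654, with 1 receptor falling, 1 processing gene rising and 0 inhibitors rising, and the calls of Ramp3 (adjusted p = 0.142), Nrp1 (0.282), Fgf1 (0.118), Fgf2 (0.0906), Furin (0.0836) and Col18a1 (0.0579) were lost. In the replicate block with it as number 1, 4933 passed, with 11 list genes, 1 other angiopoietin and 1 processing gene falling. Without Confine replicate 1 or 3, 2256 or 2054 genes passed, where the lone Confine library is assumed to vary like Ctrl. The cause of these changes was not tested. Vegfc and the untested receptors are limited by depth.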

Other observations

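Of the marker genes read as a check, Vwf, a clotting protein of endothelium, had 7, 17 and 7 counts in Ctrl and 72 and 64 in Confine (log2 fold change 2.65, edgeR adjusted p = 3.20e-04), and Erg, an endothelial transcription factor, had 124, 171 and 177 against 34 and 59 (-1.81, edgeR adjusted p = 8.92e-04). Per length, the ratio of Pgf to its receptor gene Flt1 was 0.488, 0.458 and 0.654 in Ctrl and 7.71 and 8.09 in Confine.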
